A study of Mus musculus with 10 samples.

Results

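The IGF1 system of granulosa cells was described through 10 genes, chosen by name: the ligand gene Igf1, the receptor genes Igf1r and Igf2r, 6 genes for binding proteins (Igfbp2 to Igfbp7) and the protease gene Pappa. All 10 were found among the 35087 rows that carry a gene symbol. Transcripts were measured by GEO-seq, a protocol for small amounts of RNA from captured tissue areas, in granulosa cells taken by laser microdissection from ovaries of wild-type C57B6/J females aged 3 weeks. The NAC group (4 libraries) received 150 mg/kg N-acetyl-L-cysteine, an antioxidant and cysteine source, by intraperitoneal injection on each of 3 days, and the saline group (6 libraries) received normal saline in the same way. Ovaries were taken on day 4 counted from the first injection, and all 10 libraries carry batch number 1. The labels do not tie libraries to animals, so the p-values speak only of the spread among these captures, which may be partly technical. In such captures, fewer cells of a type and less RNA per cell cannot be told apart.

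IGF1 is a secreted growth factor that signals through the receptor tyrosine kinase IGF1R, and in rodent follicles it is made by the granulosa cells of growing follicles and raises their response to FSH. The binding proteins hold IGF1 in the extracellular fluid and in most settings limit its access to the receptor. In rat ovaries, IGFBP4 and IGFBP5 are known for their expression in granulosa cells of atretic follicles, and PAPP-A, the product of Pappa, releases IGF1 by cutting IGFBP4 and IGFBP5. IGF2R, which is also the mannose 6-phosphate receptor, takes IGF2 into the cell for breakdown and does not pass on the IGF1 signal.

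Igfbp2 and Igfbp5 are neighbours on chromosome 1 (GRCm38) that are transcribed towards each other, with 5457 bases between their annotated ends: Igfbp2 spans 72824503 to 72852474 on the plus strand and Igfbp5 spans 72857932 to 72874884 on the minus strand. Their values stood on opposite sides of the saline level in NAC, as given below for each gene, and their start regions are shown for that reason. The RefSeq sequence upstream of each start (GRCm38.p6, 5′ to 3′ on the strand of the gene) was searched on both strands for GTAAACA, a site bound by FOXO factors, for ACGTG and GCGTG, the core letters bound by HIF, and for TATAAA. Capitals mark the matches. The Igfbp2 window is chr1:72824230-72824479 (plus strand), the 250 bases before the first of its RefSeq starts. The Igfbp5 window is chr1:72874885-72875115 (minus strand), 231 bases that end 20 bases before the start, where the first GENCODE exon begins.
Igfbp2: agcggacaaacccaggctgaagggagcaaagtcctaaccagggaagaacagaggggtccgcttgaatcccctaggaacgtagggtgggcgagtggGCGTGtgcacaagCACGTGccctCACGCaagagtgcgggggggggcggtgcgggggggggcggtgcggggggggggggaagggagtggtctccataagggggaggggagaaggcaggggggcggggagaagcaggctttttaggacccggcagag
Igfbp5: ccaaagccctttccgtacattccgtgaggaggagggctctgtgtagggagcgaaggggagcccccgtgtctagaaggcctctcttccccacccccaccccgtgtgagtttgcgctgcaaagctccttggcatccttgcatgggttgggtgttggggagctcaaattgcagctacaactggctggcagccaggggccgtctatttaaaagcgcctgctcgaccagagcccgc
The Igfbp2 window holds GCGTG at 155 and, on the opposite strand, at 132 bases before the start, and ACGTG on both strands of one palindrome at 142 and 141 bases before it. RefSeq gives Igfbp2 a second start further downstream, whose window, like that of Igfbp5, holds none of these letters. ACGTG or GCGTG was also found in the windows of Igf1, Igf1r, Igf2r, Igfbp3 and Igfbp7, and not in those of Igfbp4 and Igfbp6. Among all 32851 RefSeq windows of 250 bases, 16.6% hold ACGTG, 28.2% GCGTG, 3.17% GTAAACA and 12.4% TATAAA on either strand, so the matches are a description of sequence and not of a bound site.

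Estimated reads per library ran from 116461 to 1667181 in NAC and from 1340324 to 2488408 in saline. Libraries are named by the replicate numbers of the labels. NAC 2 and NAC 3 were the shallowest (509945 and 116461 reads) and lacked reads for more genes, with 84.8% and 85.1% of tested genes detected where each of the others had at least 97.7%. A single read is worth 8.06 CPM (counts per 1e6 reads, with library totals scaled by TMM factors) in NAC 3 and 0.445 to 0.721 CPM in the saline libraries, NAC 1 and NAC 4. All 13 granulosa markers had reads, with Cyp19a1 (aromatase) at 0 in NAC 2, and their sum was 4613 to 10740 CPM in NAC and 10220 to 38260 CPM in saline. Markers of other cells were also present: 10 stroma markers summed to 96.7 to 2119 CPM in NAC and 111.3 to 1010 CPM in saline, and 12 oocyte markers to 230.1 to 1528 CPM in NAC and 1.33 to 1901 CPM in saline. With an adjusted p under 0.05 by edgeR's quasi-likelihood test, 8 of 10945 tested genes (0.0731%) were called between NAC and saline. Igfbp3 and Pappa had too few reads for the test, and 0 of the 8 tested members were called. In CPM, none of the 8 had groups that did not overlap, which 5.38% of all tested genes had. Without adjustment, 3 of the 8 members had a p under 0.05, against 16.2% of all tested genes: Igf1 and Igfbp5 on the higher side (7.82% of all tested genes) and Igfbp2 on the lower side (8.34%). DESeq2 and limma-voom with sample quality weights each called 2 members, Igf1 and Igfbp5, where they called 4.16% and 4.35% of all tested genes. The same pair was called with all libraries thinned to the shallowest (1.14% of genes called), and Igf1 without the low-count filter (1.06% called). The median log2 fold was 0.54 over the 8 tested members and 0.02 over all tested genes.

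**Figure D1:**
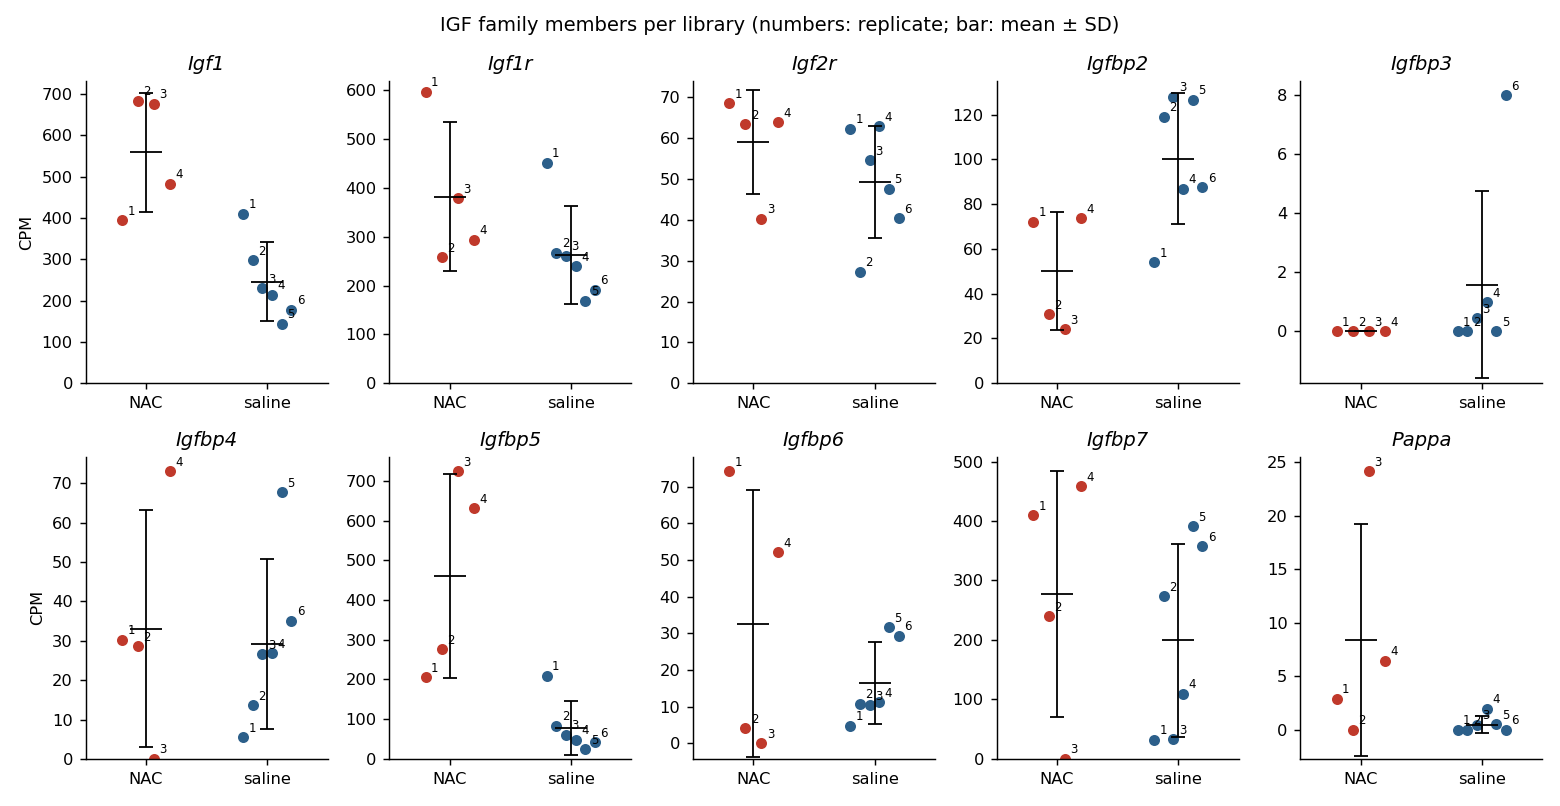
CPM of each of the 10 genes (y axis) in the 4 NAC and 6 saline libraries; points are libraries with their replicate number, and the black bar is the mean ± SD. In the Igf1 and Igfbp5 panels 3 NAC libraries lie above every saline library, while the NAC 3 point is at 0 in the panels of Igfbp4, Igfbp6 and Igfbp7.

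The ligand gene Igf1 had more transcript in NAC than in most saline libraries, without passing the test over all genes. It had 394.6, 684, 677 and 483 CPM in NAC 1 to 4, against 409.9, 298, 229, 214, 144 and 178 CPM in saline 1 to 6. In CPM, NAC 2, NAC 3 and NAC 4 lay above every saline library, and NAC 1 lay below saline 1 only. In deposited TPM all 4 NAC libraries (403.2 to 477.6 TPM) lay above all saline libraries (119.4 to 366.1 TPM). How many of all tested genes did so in TPM was not counted. With log2(TPM + 1) the adjusted p of Igf1 by limma was 0.2035. Igf1 (chromosome 10, 87858265 to 87937042, plus strand) averaged 559.5 ± 144 CPM in NAC and 245.5 ± 95.8 CPM in saline (SD, n = 4 and 6). The log2 fold was 1.18 (SE 0.30, 95% interval 0.54 to 1.82), with an unadjusted p of 0.00122 and an adjusted p of 0.0970 by edgeR's quasi-likelihood test. Over all 24 alternatives the log2 fold lay between 0.37 and 1.39, with adjusted p-values of 0.00897 (DESeq2) to 0.672 (edgeR with the replicate number as a block). Without NAC 2 and NAC 3 it was 0.81 (edgeR adjusted p = 0.209). The longest annotated Igf1 transcript has a GC content of 38.0%, the lowest of the 10 genes, and with per-library offsets that follow GC content and length the log2 fold was 0.37 (edgeR adjusted p = 0.503). The part of GC content in the difference was not tested further. An antisense gene, Igf1os, overlaps Igf1 on the other strand, and no source used here says whether reads were assigned by strand.

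The levels of Igf1 also differed among the saline libraries, alongside the granulosa marker sum. Saline 1 and saline 2, with the highest Igf1 of the saline group, had granulosa marker sums of 10220 and 13630 CPM, and the 4 other saline libraries had 33070 to 38260 CPM. The NAC libraries had sums of 9406, 4613, 10740 and 10320 CPM. The part of this shift in the Igf1 difference was not tested. Most of the sum was Inha, the inhibin alpha subunit gene, with 2586 to 8216 CPM in NAC and 7606 to 32860 CPM in saline. Inhba, Fshr, Hsd17b1 and Fst were also lower in saline 1 and saline 2 than in saline 3 to 6, but not all markers were. Foxl2 had 124.6 and 194.5 CPM in saline 1 and saline 2, against 117.2 to 207.5 CPM in saline 3 to 6. Amh had 249.2 and 292.0 CPM, against 105.4 to 287.1 CPM.

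Igf1r, the signalling receptor, did not pass the test. It had 597, 258, 379 and 294 CPM in NAC 1 to 4, against 452, 267.5, 261, 240.2, 169 and 192 CPM in saline 1 to 6. The groups overlapped, with 1 NAC library above the highest saline library. The log2 fold of Igf1r (chromosome 7, 67952827 to 68233668, plus strand) was 0.54 (SE 0.32, 95% interval -0.13 to 1.21, edgeR adjusted p = 0.409). NAC 1 carried much of it: without that library the log2 fold was 0.15.

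Within a library, Igf1 and Igf1r stood at a nearly constant ratio of CPM in saline and not in NAC. The ratio of Igf1 to Igf1r CPM, which is not corrected for transcript length, was 0.661, 2.65, 1.79 and 1.64 in NAC 1 to 4. In saline 1 to 6 it was 0.907, 1.11, 0.879, 0.890, 0.854 and 0.928. The saline ratios thus lay within 0.854 to 1.11 although Igf1 itself ran from 144 to 409.9 CPM in these libraries. All 4 NAC ratios of CPM lay outside the saline range, with 3 above it and 1 below. In deposited TPM this did not hold. The saline ratio was highest in saline 2 (323.0 TPM of Igf1 and 45.63 TPM of Igf1r) and lowest in saline 4 (181.1 and 67.03 TPM). NAC 1 (410.1 and 145.8 TPM), NAC 3 (411.5 and 79.03 TPM) and NAC 4 (477.6 and 78.34 TPM) lay between these. Only NAC 2 (403.2 and 24.34 TPM) lay above. The ratios are given as a description without a test, and NAC 2 and NAC 3 rest on the fewest reads.

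**Figure D2:**
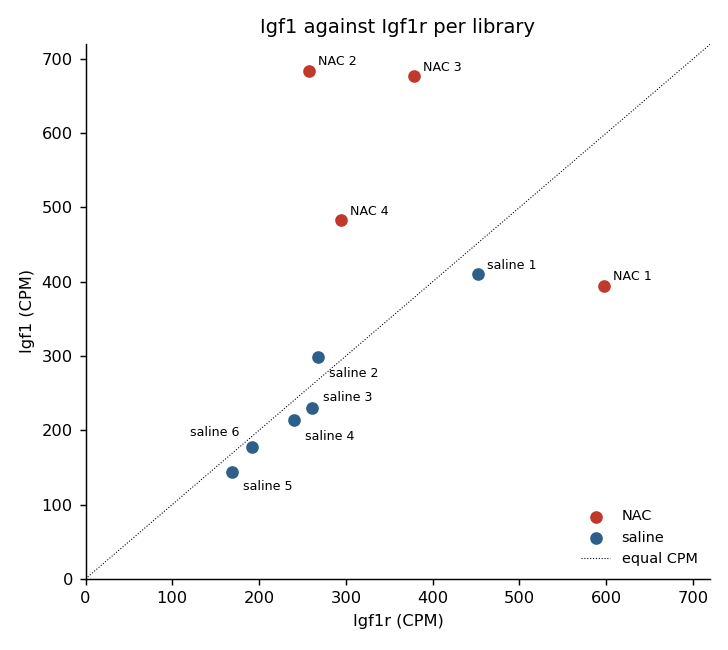
Igf1 CPM (y axis) against Igf1r CPM (x axis), each point a library, with a dotted line where both are equal. The 6 saline libraries follow the dotted line between 144 and 409.9 CPM of Igf1, NAC 2, NAC 3 and NAC 4 lie above it, and NAC 1 lies below it.

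Igf2r, the IGF2-clearing receptor (chromosome 17, 12682406 to 12769664, minus strand), had 68.5, 63.5, 40.3 and 63.9 CPM in NAC 1 to 4. In saline 1 to 6 it had 62.3, 27.3, 54.5, 62.98, 47.7 and 40.5 CPM. The groups overlapped, and the log2 fold was 0.31 (SE 0.33, 95% interval -0.39 to 1.01, edgeR adjusted p = 0.659). Igf2r is overlapped by Airn, an antisense RNA gene, so the same limit on strand applies.

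Among the binding proteins, Igfbp5 had the largest fold of the 8 tested members. It had 206, 276, 725 and 630.5 CPM in NAC 1 to 4, against 209.8, 83.4, 60.8, 47.8, 25.1 and 42.2 CPM in saline 1 to 6. The highest saline library, saline 1, lay just above the lowest NAC library, NAC 1, and the 5 other saline libraries lay below all NAC libraries. Igfbp5 averaged 459 ± 257 CPM in NAC and 78.2 ± 67.3 CPM in saline (SD, n = 4 and 6). The log2 fold was 2.54 (SE 0.51), which is 5.82-fold with a 95% interval of 2.77 to 12.3, and the edgeR adjusted p was 0.0606. By unadjusted p Igfbp5 ranked 20 among the 10945 tested genes.

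Both the call on Igfbp5 and the size of its fold depended on single libraries and settings, while its direction was positive in each of them. Without saline 1 the log2 fold was 3.13 (edgeR adjusted p = 0.0119, with 0.202% of genes called), and without NAC 1 it was 2.73 (edgeR adjusted p = 0.0436, with 0.510% called). Over all 24 alternatives it lay between 2.22 and 3.29, with adjusted p-values of 0.000108 to 0.593. With GC and length offsets it was 2.49 (edgeR adjusted p = 0.0705), and without NAC 2 and NAC 3 it was 2.41 (edgeR adjusted p = 0.177). NAC 3, which had the highest Igfbp5, had the lowest sum of stroma markers, 96.7 CPM. There 5 of the 10 markers were at 0, at 8.06 CPM per read. NAC 2, with the highest stroma sum (2119 CPM), had 276 CPM of Igfbp5, also above every saline library. With a stroma score (the mean centred log2 CPM of the tested stroma markers) as a covariate the log2 fold was 3.05 (edgeR adjusted p = 0.0201, with 0.0822% called). The part of stromal RNA in the Igfbp5 difference was not tested further. As for Igf1, the saline library with the highest Igfbp5 was the one with the lowest granulosa marker sum.

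Igfbp2, a binding protein that circulates and is made in many tissues, stood on the other side of its saline level. It had 72.1, 30.7, 24.2 and 73.6 CPM in NAC 1 to 4, against 54.0, 119, 128, 86.9, 127 and 87.6 CPM in saline 1 to 6. In CPM all 4 NAC libraries lay below all saline libraries except saline 1. In deposited TPM this held for NAC 2 and NAC 3 (37.5 and 22.4 TPM), which were also below saline 1. NAC 1 and NAC 4 (76.0 and 89.0 TPM) lay above saline 1 and saline 4 (72.2 and 73.2 TPM), and NAC 4 also above saline 6 (77.3 TPM). Igfbp2 averaged 50.1 ± 26.4 CPM in NAC and 100.4 ± 29.3 CPM in saline (SD, n = 4 and 6), a log2 fold of -0.89 (SE 0.36, 95% interval -1.65 to -0.12, edgeR unadjusted p = 0.0262 and adjusted p = 0.244). Its longest transcript has a GC content of 62.1%, the highest of the 10 genes, and with GC and length offsets the log2 fold was -0.29 (edgeR adjusted p = 0.682). Without NAC 2 and NAC 3 it was -0.50 (edgeR adjusted p = 0.460), and over all 24 alternatives the adjusted p ran from 0.172 to 0.720. The offsets follow GC content and length together, and the part of GC content in the Igfbp2 difference was not tested further.

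**Figure D3:**
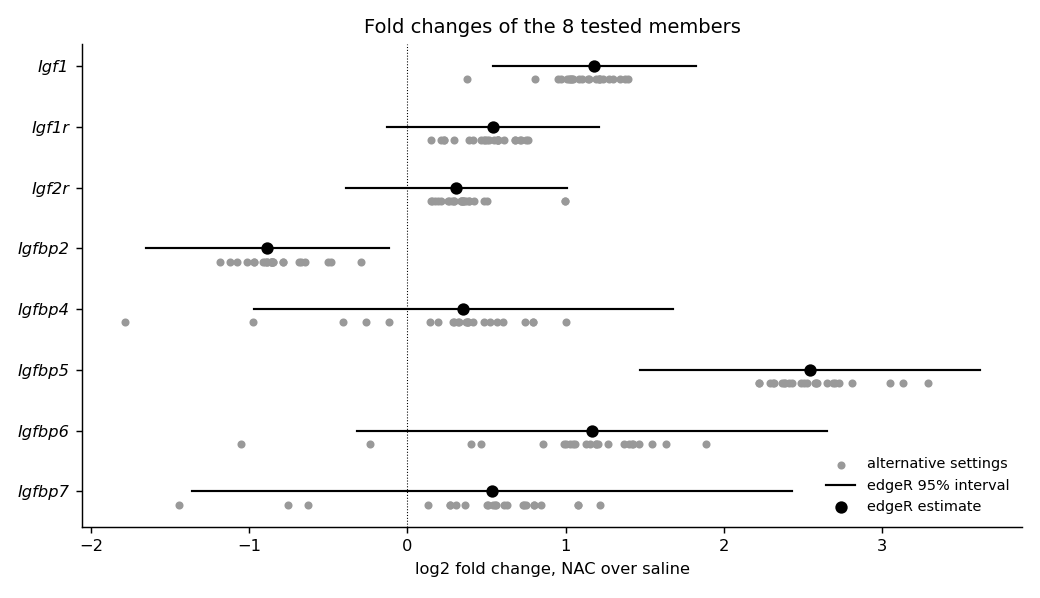
Log2 fold change, NAC over saline (x axis), of the 8 tested members (rows); black points and lines are the edgeR estimate with its 95% interval, and grey points are the alternative settings. Igfbp5 lies between 2.22 and 3.29 and Igfbp2 between -1.18 and -0.29 under all alternatives, while Igfbp4, Igfbp6 and Igfbp7 have grey points on both sides of 0.

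Igfbp4, Igfbp6 and Igfbp7 varied more among libraries of a group than between the groups. Igfbp7, a secreted protein with low affinity for IGFs that is abundant in vessels and stroma, had 409.8, 239.6, 0 and 458 CPM in NAC 1 to 4, against 32.5, 274, 32.9, 109, 391.5 and 357 CPM in saline 1 to 6. Its log2 fold was 0.53 (SE 0.86, edgeR adjusted p = 0.790). Igfbp4, the main substrate of PAPP-A, had 30.3, 28.7, 0 and 73.0 CPM in NAC 1 to 4, against 5.54, 13.7, 26.6, 26.9, 67.6 and 35.1 CPM in saline 1 to 6 (log2 fold 0.35, SE 0.62, edgeR adjusted p = 0.805). Igfbp6, a binding protein with a preference for IGF2, had 74.3, 4.10, 0 and 52.1 CPM in NAC 1 to 4, against 4.85, 10.8, 10.4, 11.2, 31.8 and 29.3 CPM in saline 1 to 6 (log2 fold 1.17, SE 0.70, edgeR adjusted p = 0.422). The intervals of these 3 genes were wide, with 95% bounds of -1.36 to 2.43 for Igfbp7, -0.97 to 1.68 for Igfbp4 and -0.32 to 2.65 for Igfbp6.

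The stroma markers ran beside Igfbp7 and Igfbp6 in most libraries, though not in all. NAC 3, where all 3 had 0 reads, had 96.7 CPM of stroma markers, with Col1a1, Dcn, Lum, Pdgfra and Mfap4 at 0, and 3 reads there, the limit that a count of 0 allows, are worth 24.2 CPM. Igfbp7 at 0 in that library is far under the 239.6 to 458 CPM of the other NAC libraries, whereas Igfbp4 and Igfbp6 at 0 cannot be set apart from the lower values of other libraries. In saline, the libraries with the least stroma marker RNA, saline 3, saline 1 and saline 4 (111.3, 116 and 145.5 CPM), were those with the least Igfbp7, and saline 5 and saline 6 (574 and 1010 CPM) had the most Igfbp7 and Igfbp6. NAC 2 went against this: it had the highest stroma sum of all libraries, 2119 CPM, with the lowest Igfbp6 and Igfbp7 of the 3 NAC libraries that had reads. Igfbp4 followed the stroma sum less closely, since saline 2 (509.5 CPM of stroma markers) had 13.7 CPM of Igfbp4, below saline 3 and saline 4. With the stroma score as a covariate the log2 fold of Igfbp7 was -0.76 (edgeR adjusted p = 0.668), that of Igfbp4 was -0.26 (edgeR adjusted p = 0.922) and that of Igfbp6 was 0.40 (edgeR adjusted p = 0.888). The 7 endothelium markers summed to 48.3 to 188 CPM in NAC and 23.4 to 67.6 CPM in saline. The part of stromal or vessel RNA in these values was not tested further. On the opposite strand, Polr2b, an RNA polymerase gene, overlaps Igfbp7, and it had 1149 reads over all libraries.

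**Figure D4:**
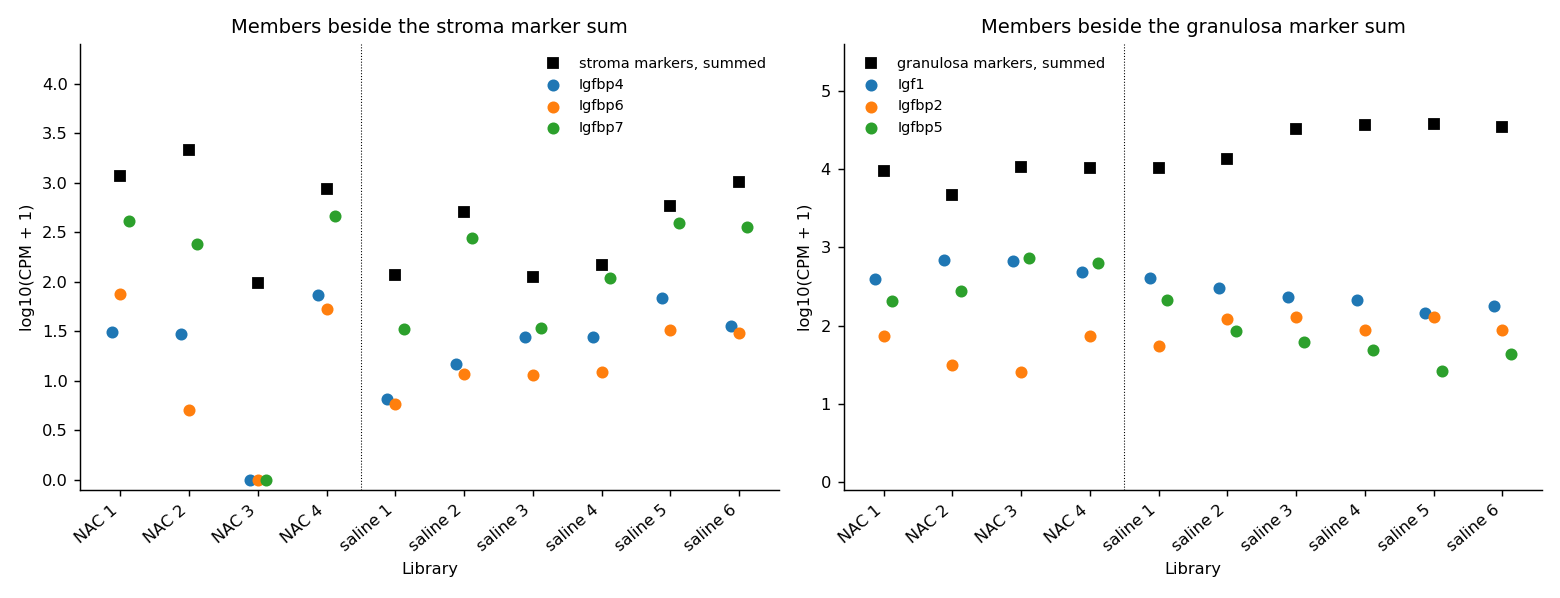
Values on a log10(CPM + 1) scale (y axis) for each library (x axis); black squares are the summed stroma markers (left) or granulosa markers (right), and coloured points are single genes. On the left Igfbp7 is lowest in NAC 3, saline 1 and saline 3, where the stroma sum is 96.7 to 116 CPM; on the right Igf1 and Igfbp5 are higher in the 4 NAC libraries and saline 1, where the granulosa sum is 4613 to 10740 CPM, than in saline 3 to 6.

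Igfbp3, the main carrier of IGF1 in serum, had 0 reads in all NAC libraries, where 3 reads over the group would be 0.777 CPM. In saline it had 21 reads, of which 18 were in saline 6 (8.0 CPM). For Pappa, 19 reads were found in NAC and 6 in saline. In CPM these were 2.89, 0, 24.2 and 6.45 in NAC 1 to 4, against 0, 0, 0.451, 1.95, 0.512 and 0 in saline 1 to 6. The 24.2 CPM of NAC 3 are 3 reads, so the level of Pappa rests on few molecules in every library. Where both had reads, the ratio of Pappa to Igfbp4 was 0.0952 and 0.0882 in NAC 1 and NAC 4, against 0.0169, 0.0727 and 0.00758 in saline 3, saline 4 and saline 5. It was 0 in NAC 2, saline 1, saline 2 and saline 6, where Igfbp4 alone had reads.

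Levels of different genes were compared on deposited TPM, which is per transcript length. In NAC, Igf1 had the highest median (411 TPM), followed by Igfbp7 (375 TPM), Igf2r (96.9 TPM), Igfbp5 (84.8 TPM) and Igf1r (78.7 TPM), with Igfbp2 (56.8 TPM), Igfbp6 (37.3 TPM) and Igfbp4 (8.12 TPM) below them. In saline, the order by median was Igfbp7 (225 TPM), Igf1 (203 TPM), Igfbp2 (90.8 TPM), Igf1r (56.3 TPM), Igf2r (24.5 TPM), Igfbp4 (13.0 TPM), Igfbp6 (12.5 TPM) and Igfbp5 (8.83 TPM). Igfbp3 and Pappa had medians under 1 TPM in both groups. Igfbp5 thus ranked 4 in NAC and 8 in saline. Neighbours in either order overlapped in their ranges, apart from Igfbp5 and Igfbp3 in saline, but Igf1 exceeded Igfbp2 in 6 of 6 saline libraries. The TPM of Igf2r is uncertain, since its reads were spread differently over long and short transcripts: it ran from 4.36 to 174.8 TPM in NAC, where its CPM ran from 40.3 to 68.5.

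As a pool, the 6 binding proteins summed to 717.5, 349, 141 and 936 TPM in NAC 1 to 4, against 172, 499.5, 183, 215, 561 and 517 TPM in saline 1 to 6. Igfbp7 was the largest part of the pool in NAC 1, NAC 2 and NAC 4 (65.7% to 71.4%) and in saline 2, 4, 5 and 6 (51.8% to 74.1%). Igfbp2 led the pool in saline 1 (42.1%) and saline 3 (61.2%). The share of Igfbp5 was 5.65%, 14.6%, 84.1% and 14.0% in NAC 1 to 4, against 25.3%, 3.18%, 5.50%, 3.52%, 0.695% and 1.35% in saline 1 to 6. In NAC 3 reads were found for Igfbp5 and Igfbp2 alone, with 3 reads of Igfbp2, and at the depth of that library the zeros of Igfbp4 and Igfbp6 do not show that they were lacking from the pool. The ratio of Igfbp5 to Igfbp4 in CPM was 6.79, 9.64 and 8.63 in NAC 1, NAC 2 and NAC 4, against 37.9, 6.10, 2.29, 1.78, 0.371 and 1.2 in saline 1 to 6, so the groups overlapped through saline 1.

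**Figure D5:**
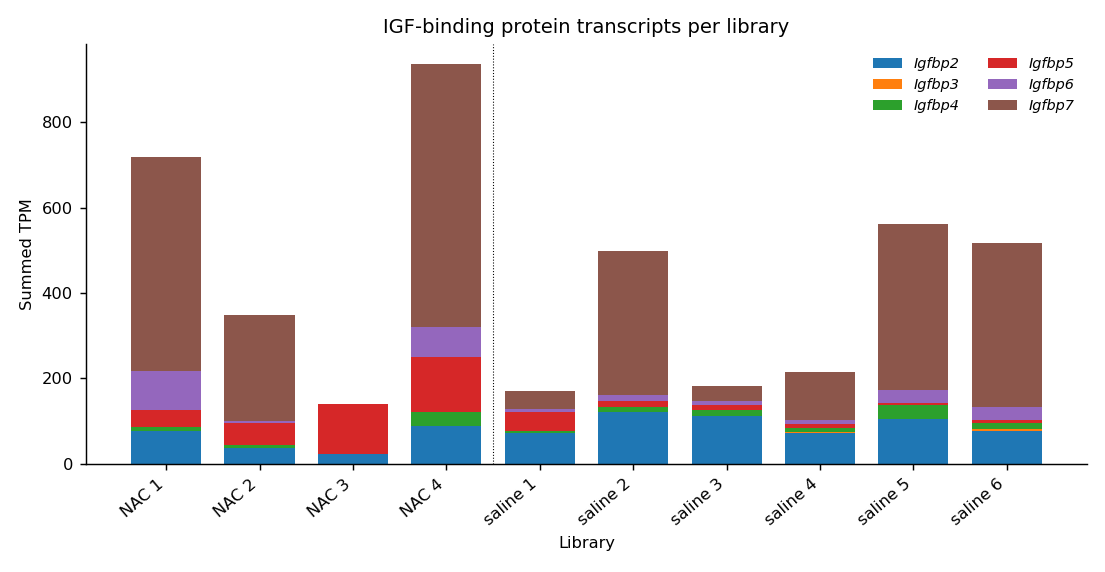
Summed TPM of the 6 binding protein genes (y axis) in each library (x axis), stacked by gene. Igfbp5 takes 84.1% of the bar of NAC 3 and 0.695% of that of saline 5, and the tallest bar is NAC 4 with 936 TPM.

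Other genes of the pathway were read from a list of 25, of which 13 had enough reads for the test. None passed edgeR's test with adjustment over all genes, 6 had positive and 7 negative folds with a median of -0.01, and 1 of the 13 had an unadjusted p under 0.05, against 16.2% of all tested genes. Grb10, an imprinted gene for an adaptor that restrains insulin and IGF1 receptors, was that gene, with 45.4, 77.8, 16.1 and 20.9 CPM in NAC 1 to 4, against 6.23, 20.7, 3.61, 3.91, 24.6 and 27.6 CPM in saline 1 to 6 (log2 fold 1.51, SE 0.64, edgeR adjusted p = 0.255). Its lowest saline values were in the 3 saline libraries with the least stroma marker RNA, and with the stroma score as a covariate the log2 fold was 0.43 (edgeR adjusted p = 0.909). The part of stromal RNA in the Grb10 difference was not tested further. Stc1, which encodes an inhibitor of PAPP-A, averaged 55.4 ± 47.1 CPM in NAC and 23.7 ± 22.9 CPM in saline (SD, n = 4 and 6; edgeR adjusted p = 0.439). Insr, the insulin receptor gene, had a log2 fold of 0.65 (SE 0.46), and Irs1, a docking protein for both receptors, of 1.03 (SE 0.81). Shc1, an adaptor towards RAS signalling, had -0.49 (SE 0.38), and Igf2bp3, an RNA-binding protein gene, 0.65 (SE 0.53). The 4 genes had adjusted p-values from 0.503 to 0.561 by edgeR. Igf2 had 2.23 estimated reads in NAC and 0 in saline, so this second ligand gene was close to undetected at this depth.

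A list of 11 granulosa genes tied to FSH, IGF1 and PI3K signalling had 10 tested members, of which 0 passed with adjustment over all genes by edgeR and 4 had an unadjusted p under 0.05, against 16.2% of all tested genes. Of these, 1 was higher in NAC (7.82% of all tested genes) and 3 were lower (8.34%). Fshr, the FSH receptor gene and also 1 of the 13 granulosa markers, had 57.7, 57.3, 40.3 and 24.2 CPM in NAC 1 to 4, against 49.8, 38.1, 144, 118, 127 and 119.6 CPM in saline 1 to 6. The NAC values were close to those of saline 1 and saline 2 and below those of saline 3 to 6, and the log2 fold was -1.15 (SE 0.43, edgeR adjusted p = 0.214). Ccnd2, a cyclin gene that FSH and IGF1 signalling raise in granulosa cells, averaged 1875 ± 406 CPM in NAC and 2762 ± 429.5 CPM in saline (SD, n = 4 and 6; log2 fold -0.56, edgeR adjusted p = 0.294). Pik3r1, a regulatory subunit of PI3-kinase, averaged 93.1 ± 31.3 CPM in NAC and 45.9 ± 20.7 CPM in saline (SD, n = 4 and 6; log2 fold 0.97, edgeR adjusted p = 0.232). Foxo1, the transcription factor that AKT holds out of the nucleus, had a log2 fold of -0.71, Akt1 of -0.85 and Pik3ip1, an inhibitor of PI3-kinase, of 1.35. Adjusted p-values by edgeR for these 3 genes were 0.307, 0.331 and 0.352. The median log2 fold of the 10 genes was -0.49.

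The genes most like Igf1 and Igfbp5 were sought among 9559 tested genes of at least 10 CPM on average, by Pearson's r of log2 CPM over the 10 libraries after the mean of each group was taken out. For Igf1 they were Elk4, Sema3c, Thyn1, Rgs2 and C1galt1 (r of 0.910 to 0.918). For Igfbp5 they were Tmem65, C1galt1, Shisa6, Pdpn and Foxk2 (r of 0.865 to 0.879). C1galt1, which encodes a glycosyltransferase of O-linked sugars, was on both lists and had 133 CPM in NAC and 49.5 CPM in saline on average (log2 fold 1.40, edgeR adjusted p = 0.137). Rgs2, a regulator of G protein signalling, averaged 2340 CPM in NAC and 923 CPM in saline (log2 fold 1.34, edgeR adjusted p = 0.0754). The log2 folds of the others differed in sign. They were 0.37 for Elk4, 1.38 for Sema3c, 0.82 for Thyn1, -0.78 for Tmem65, 0.84 for Shisa6, 0.90 for Pdpn and -0.25 for Foxk2. Over the 24 alternatives the adjusted p ran from 0.00136 to 0.650 for Rgs2 and from 0.0199 to 0.672 for C1galt1. All these values share the depth of their libraries, and the genes were picked as the highest of 9559, so the names and r are a description.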

How the data were processed

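The authors deposited a table for each library. The submitters' processing notes name Salmon and GRCm38; no source used here gives versions, annotation or strand setting. Per the file headers the tables hold estimated counts and TPM per gene. The deposited lengths of the members are not usable as such: Igfbp5, with 2 annotated transcripts, the longer of 6006 bases, is listed at 3003 bases in 6 libraries. The lengths listed for Igfbp5 and Igfbp7 mostly correspond to a length divided by the number of transcripts, while the deposited TPM behave as if made from undivided lengths. Not every listed length is divided: Igfbp7, with 2 annotated transcripts, the longer of 1200 bases, is listed at 558 to 1158 bases. Rows without a symbol (1548, with 0.496% to 0.638% of reads) were left out.

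Estimated counts were rounded and tested with edgeR 4.0.16 (R 4.3.3; quasi-likelihood, robust, TMM, default low-count filter), with Benjamini-Hochberg adjustment over 10945 genes and a threshold of 0.05. SE is the log2 fold over the root of the test's F, and 95% intervals use its degrees of freedom. In simulated data on these 10945 genes, a log2 change of 1 was called for 2% and of 2 for 44% of the 100 genes changed by each size. In the same data 5 unchanged genes were called. Floors of 3 reads cover counting error only, since PCR copies were not marked by molecular identifiers. Positions come from GENCODE M21 (GRCm38), and start regions from RefSeq, which held windows for 9 of the 10 members. Alternatives were DESeq2 1.42.0, limma-voom (limma 3.58.1), library size alone, RLE factors, limma on log2(TPM + 1) and log2(TPM + 0.1), other filters, left-out libraries, the replicate number as a block, covariates, and GC and length offsets. Thinning was added after seeing the data. Named genes were the 10 members, the 6 of smallest p in each list, and the 5 most like each of Igf1 and Igfbp5. The members and lists were chosen with earlier results of these data known.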

Additional observations from a re-analysis of the deposited data

Results flagged for a closer look

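In 7 of 61 groups of values of the named genes, 1 library lay farther from its nearest neighbour than Dixon's 95% limit allows; chance gives about 1 in 20. Of these, 6 were high saline libraries. Saline 1 had 452 CPM of Igf1r and 209.8 CPM of Igfbp5. Saline 6 had 8.0 CPM of Igfbp3. Saline 4 had 1.95 CPM of Pappa, which is 4 reads, and 29.3 CPM of Pik3ip1, the PI3-kinase inhibitor gene. Among the genes most like Igf1 or Igfbp5, saline 1 had 143 CPM of Thyn1, and NAC 1 was the low library, with 45.5 CPM of Foxk2. Without saline 1 the log2 fold of Igf1r was 0.76 (edgeR adjusted p = 0.234).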

How the results depend on the processing

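Of 695 values of the 29 tested named genes under 24 alternatives, 653 kept their direction and side of the threshold, 25 passed it and 17 turned sign. The count of 8 genes called became 455 with DESeq2, 476 with limma-voom, 226 without the low-count filter, 2 without NAC 2 and NAC 3 together, 42 with genes detected as a covariate, 16 with GC and length offsets and 125 with thinning, and 1 to 58 with each library left out. It was 1 without NAC 3, NAC 4, saline 3, saline 5 or saline 6, 2 without saline 4, 5 without saline 2, 22 without saline 1, 39 without NAC 2 and 58 without NAC 1. The count of 0 members called became 2 with DESeq2, limma-voom or thinning (Igf1 and Igfbp5), 1 without the low-count filter (Igf1), 1 with the stroma score (Igfbp5), and 0 to 1 with each library left out. Of the 13 tested genes of the pathway list and the 10 of the granulosa list, 0 became 3 with limma-voom (Fshr, Pik3r1 and Foxo1). With that setting 4.35% of all tested genes were called.

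Signs turned with log2(TPM + 1) and log2(TPM + 0.1) for Igfbp4 (-0.98 and -1.79), Igfbp6 (-0.24 and -1.05), Igfbp7 (-0.63 and -1.45), and Foxk2 (0.095 and 0.10), and with log2(TPM + 0.1) for Irs1 (-0.52); with the stroma score for Igfbp4 (-0.26), Igfbp7 (-0.76) and Stc1 (-0.52); with thinning for Igfbp4 (-0.11); with GC and length offsets for Shc1 (0.013). The cause was not tested. With each library left out, Igfbp4 ran from -0.41 (without NAC 4) to 0.74 and Igf2bp3 from -0.09 (without NAC 1) to 0.86. Over all genes the median log2 fold, 0.02 with TMM factors, was 0.19 with library size alone and -0.14 with log2(TPM + 0.1).

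Replicate numbers 1 to 4 occur in both groups, and the labels do not say what they stand for. Deviations of same-numbered libraries from their group means had correlations of -0.00810, 0.0105, 0.00932 and 0.196. Among saline 1 to 4, NAC 2 and NAC 4 correlated best with their own number. These correlations cannot tell whether same-numbered libraries were paired. With the replicate block 1 gene was called, 0 of them members, and Irs1 was at -0.063. Irs1 gave no value with the filter of 10 CPM in 4 libraries. In NAC 3 a change under 24.2 CPM from 0 was not detectable.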
